A study of Mus musculus with 4 samples.

Results

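The cytosolic ribosomal proteins are the protein components of the small (40S) and large (60S) subunits of the ribosome, and their mRNA levels were compared between cultured monocytes with and without retinoic acid. Members were the probe sets whose single gene symbol in the platform annotation is that of an Rpl or Rps gene, of Rplp0 to Rplp2 or of Rpsa. The kinases of the Rps6k family and annotated pseudogenes were left out. The rule used names, not measured values, and found 108 probe sets of 67 genes in a table of 41345 probe sets. Those are 67 of the 22180 genes that a single-symbol probe set measures. Of these genes, 42 belong to the large subunit and 25 to the small subunit. They include 9 paralogues, gene copies named after a parent (Rpl3l, Rpl6l, Rpl7l1, Rpl10l, Rpl22l1, Rpl32l, Rpl39l, Rps4l and Rps27l).

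The cells were mouse Ly6C-high monocytes, which can develop into dendritic cells or macrophages. They were enriched with beads and sorted from bone marrow pooled from 3 mice, then grown with GM-CSF and interleukin 4 at 20 ng per ml each. All 4 samples received these cytokines. From the start of culture, 2 samples also had all-trans retinoic acid at 100 nM, the vitamin A metabolite that acts through nuclear receptors, and 2 had only its solvent, DMSO. RNA was taken after 24 h (day 1) and read on whole-transcript arrays, 1 array a sample. Strain, sex and age are not given in the sources used here. The labels do not say whether the samples of a group were separate cultures, so p-values here reflect how far these samples lie apart, and that spread may be technical. Fewer cells of a type and less RNA per cell cannot be told apart in such bulk samples.

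Ribosomal proteins are made in fixed proportion to one another, since each mature ribosome holds a single copy of nearly all of them. Their mRNAs are among the most abundant in growing cells and carry a terminal oligopyrimidine tract, the 5′ TOP, a run of C and T bases at the very start of the transcript. Through it the mTORC1 kinase and the RNA-binding protein LARP1 control how strongly these mRNAs are translated. Arrays measure the mRNA level alone and do not see that step.

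The start of the transcript is shown for 6 members with such a tract, because it is the sequence feature the family is best known for, and for 2 without it at the listed start. RefSeq's promoter table (GRCm38.p6) held 61 promoters of 52 of the 67 genes, each 300 bases long. Each line below gives the 25 bases before the listed transcript start and the first 15 of the transcript, and the capitals mark the unbroken run of C and T that covers the start base, where it is at least 8 bases long.
Rps27, chr3:90213634-90213673, minus strand: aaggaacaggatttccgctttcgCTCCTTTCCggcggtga
Rps6, chr4:86857353-86857392, minus strand: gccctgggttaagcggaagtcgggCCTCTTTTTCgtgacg
Rps10, chr17:27635230-27635269, minus strand: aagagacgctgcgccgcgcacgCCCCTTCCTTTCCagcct
Rpl28, chr7:4792940-4792979, plus strand: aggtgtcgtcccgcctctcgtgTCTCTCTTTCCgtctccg
Rpl15, chr14:18270972-18271011, minus strand: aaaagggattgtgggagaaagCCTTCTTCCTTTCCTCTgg
Rplp2, chr7:141447626-141447665, plus strand: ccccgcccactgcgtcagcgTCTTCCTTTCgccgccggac
Rps3, chr7:99483695-99483734, minus strand: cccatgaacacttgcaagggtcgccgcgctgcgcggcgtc
Rpl22l1, chr3:28805483-28805522, plus strand: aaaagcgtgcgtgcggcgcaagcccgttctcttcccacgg

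Such a run covered the listed start in 16 of the 61 member promoters (26.2%), against 3.86% of all 32851 promoters in the table. A listed start can lie some bases from the one a cell uses, so a missing run says only that it was not at this base. The core of the ETS factor site, CGGAAG on either strand, stood in 57.4% of member promoters and in 16.9% of all. GGGCGG, the core of the Sp1 site, stood in 50.8% and 35.7%, and TATAAA in 9.84% and 13.6%. AGGTCA, a motif that retinoic acid receptors share with other nuclear receptors, was found in 9.84% of member promoters and 16.3% of all. The direct repeat of that motif with a gap of 5 bases, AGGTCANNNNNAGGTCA, was found in 0 of 61 member promoters and in 3 of the 32851. A pattern so rare in the whole table leaves the 0 of 61 uninformative. Other spellings of the motif were not searched. These are counts of letters and not of bound sites.

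No ribosomal protein mRNA passed the test for a change with retinoic acid. Of the 108 member probe sets, 0 were higher and 0 lower at a limma adjusted p under 0.05, where 2.09% of all 39720 probe sets tested passed, 0.904% higher and 1.19% lower. At an unadjusted p under 0.05 the count was again 0 of 108, against 13.4% of all probe sets tested and 20.1% of the 19849 that lay above the dim level. The dim level is a log2 intensity of 6.34, the 95th percentile of 1383 odorant and pheromone receptor probe sets. Most of these receptor genes were taken to be silent in monocytes, which was not tested. The smallest adjusted p of any member was 0.374, that of Rps27. The count of 831 over all probe sets fell when any array was left out, to 41 without either DMSO array, and to 25 and 55 without the first and the second of the retinoic acid arrays. With the constant probe sets kept in the fit it was 0, with the replicate number as a block 161, and with only probe sets of 1 symbol 1636, so the share that the members are read against depends on the filter. The member count was 0 in each of those fits.

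A difference is the mean log2 intensity of the 2 retinoic acid arrays less the mean of the 2 DMSO arrays, and its standard error (SE) is the moderated one of limma. A gene with several probe sets is shown by the brightest of them, judged over all 4 arrays. Over the 67 genes the differences ran from -0.37 to 0.19 with a median of 0.02, and the middle 50% lay between -0.04 and 0.09. Over all 22180 genes measured by a probe set of their own, the median was 0.01 and the middle 50% lay between -0.09 and 0.11, with extremes of -4.44 and 4.81. Only 1 of the 67 genes, Rps27, differed by 0.25 or more in either direction, against 16.1% of all genes. The 25 small subunit genes had a median of -0.02, with 10 positive and 15 negative, and the 42 large subunit genes one of 0.05, with 26 positive and 16 negative. Without retinoic acid replicate 2 the small subunit median was 0.04, and without retinoic acid replicate 1 that of the large subunit was -0.01. The sign of each subunit's median thus turned on single arrays.

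**Figure D1:**
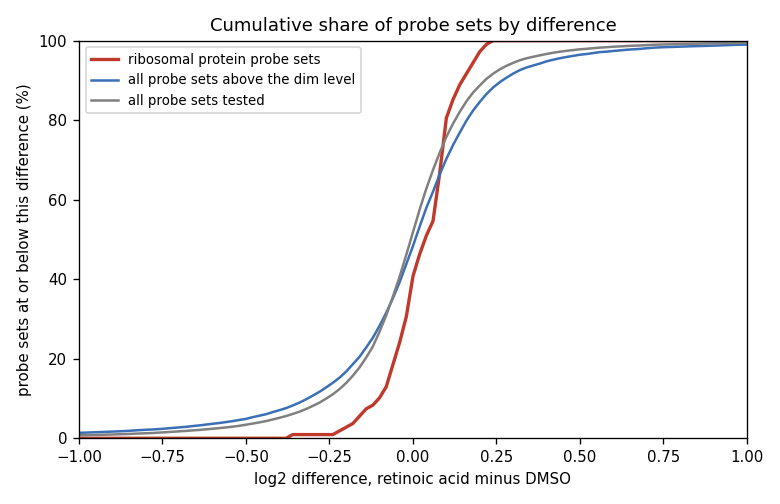
Cumulative share of probe sets (vertical axis, percent) at or below a given log2 difference between retinoic acid and DMSO (horizontal axis), for 108 ribosomal protein probe sets, all 39720 tested and the 19849 above the dim level. The curve of the ribosomal proteins climbs from 0 to 100% between -0.37 and 0.24, while the other curves have tails that run past both ends of the axis.

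How small a change the arrays could have shown is set by the spread between replicates. The median SE over the 67 genes was 0.10, and the 95% confidence interval of the difference reached a median of 0.25 to either side. For 60 genes the whole interval lay within 0.5 of zero on the log2 scale, and for all 67 within 1, that is within a 2-fold change. The 7 genes not within 0.5 were Rps27, Rps15, Rps13, Rpl7, Rpl9, Rpl37 and Rpl37a. The 67 include 5 genes with means under the dim level, where a narrow interval says little about the mRNA. To pass the threshold in the main fit, the median gene would have needed an observed difference of 0.68, or 1.60-fold. The lowest such bound was 1.46-fold and the highest 3.11-fold. Smaller observed differences than these could not be called at this number of arrays, and the result does not show that the levels were equal. A true change of that size can give a smaller observed difference and be missed. These bounds belong to the fit in which 831 probe sets passed and were not worked out for the other fits.

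**Figure D2:**
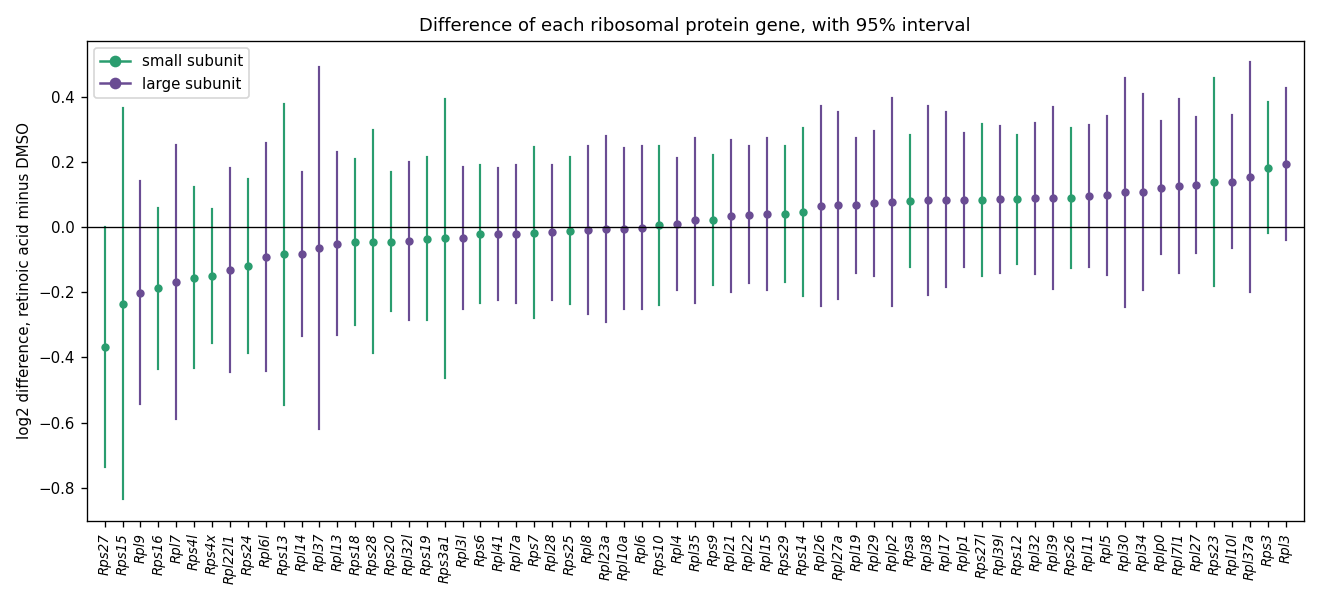
Log2 difference between retinoic acid and DMSO for each of the 67 ribosomal protein genes (points), with its 95% confidence interval (lines), ordered by difference and coloured by subunit. All 67 intervals include 0, and the widest belongs to Rps15.

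Rps27, a zinc-binding protein of the small subunit whose transcript start is shown above, had the largest difference. Its log2 intensity was 8.67 on both DMSO arrays, 8.49 on retinoic acid replicate 1 and 8.12 on retinoic acid replicate 2. Both retinoic acid arrays were lower, and most of the gap came from the second. The difference was -0.37 ± 0.14 (SE, limma adjusted p = 0.374; 95% interval -0.74 to 0.002). With the second retinoic acid array left out it was -0.18, with the first left out -0.55, and it did not pass in either fit.

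Of the other small subunit genes with low values under retinoic acid, Rps15, which stands near the decoding site, had 6.20 and 6.39 with DMSO and 5.74 and 6.38 with retinoic acid. Only retinoic acid replicate 1 stood apart, and the groups overlapped (-0.24 ± 0.23, SE, limma adjusted p = 0.741). Rps16, whose tail reaches the tRNA site of the small subunit, had 6.15 and 6.25 with DMSO and 6.09 and 5.94 with retinoic acid (-0.19 ± 0.09, limma adjusted p = 0.494). Both genes lay under the dim level on average, so these probe sets say little about their mRNAs. Rps4x, the X-linked form of its protein, had 12.13 and 12.12 with DMSO against 12.01 and 11.94 with retinoic acid. Its groups did not overlap, and the difference was -0.15 ± 0.08 (limma adjusted p = 0.513).

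Among the large subunit genes, Rpl9, a protein near the base of the stalk, had 10.65 and 10.82 with DMSO and 10.68 and 10.39 with retinoic acid. Its groups overlapped, with a difference of -0.20 ± 0.13 (SE, limma adjusted p = 0.606). Rpl7, an RNA-binding protein of the large subunit, had 11.31 and 11.59 with DMSO and 11.45 and 11.11 with retinoic acid (-0.17 ± 0.16, limma adjusted p = 0.735). The second, dimmer probe set of Rpl7 had a difference of the opposite sign, 0.18 ± 0.10 (limma adjusted p = 0.517). It was the only gene whose probe sets had opposite signs and differences more than 0.3 apart.

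The most positive difference was that of Rpl3, which lines the peptidyl transferase centre where peptide bonds form. Its brightest probe set had 11.06 and 10.99 with DMSO and 11.29 and 11.15 with retinoic acid, so the groups did not overlap. The difference was 0.19 ± 0.09 (SE, limma adjusted p = 0.453), and a second probe set of the gene had 0.17 ± 0.08 (limma adjusted p = 0.482). Rps3, which guards the entry of the mRNA channel and also takes part in DNA repair, had 11.81 and 11.84 with DMSO and 12.04 and 11.98 with retinoic acid. Both retinoic acid arrays of Rps3 were higher, by 0.18 ± 0.08 (limma adjusted p = 0.416). Rpl37a, a small zinc-binding protein, had 8.74 and 8.55 against 8.94 and 8.65, and Rps23, a protein of the decoding centre, 8.53 and 8.23 against 8.54 and 8.50. The groups of both overlapped, and their differences were 0.15 ± 0.14 and 0.14 ± 0.12 (limma adjusted p = 0.709 and 0.707).

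The probe sets of Rpl21, Rpl29, Rpl4, Rpl28 and Rps6 had the highest log2 intensities of the family. Intensities of different probe sets depend on their probes, so this order is no order of mRNA abundance. On these probe sets the arrays agreed closely. Rps6, the small subunit protein phosphorylated by the kinases that mTORC1 activates, had 13.25 and 13.28 with DMSO and 13.29 and 13.20 with retinoic acid, a difference of -0.02 ± 0.08 (SE, limma adjusted p = 0.950). Rpl4, which lines the exit tunnel of the nascent chain, had 13.27 and 13.31 against 13.33 and 13.28. Rpl21 differed by 0.03 ± 0.09, Rpl29 by 0.07 ± 0.09, Rpl4 by 0.01 ± 0.08 and Rpl28 by -0.02 ± 0.08. The signs of Rps6 and Rpl28 were not the same under every scaling of the arrays tried, nor were those of Rpl6 and Rpl32l. The highest intensity on any array was between 15096 and 15453, or just under 14 on the log2 scale. Whether probe saturation shortened the differences of the brightest members was not tested.

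**Figure D3:**
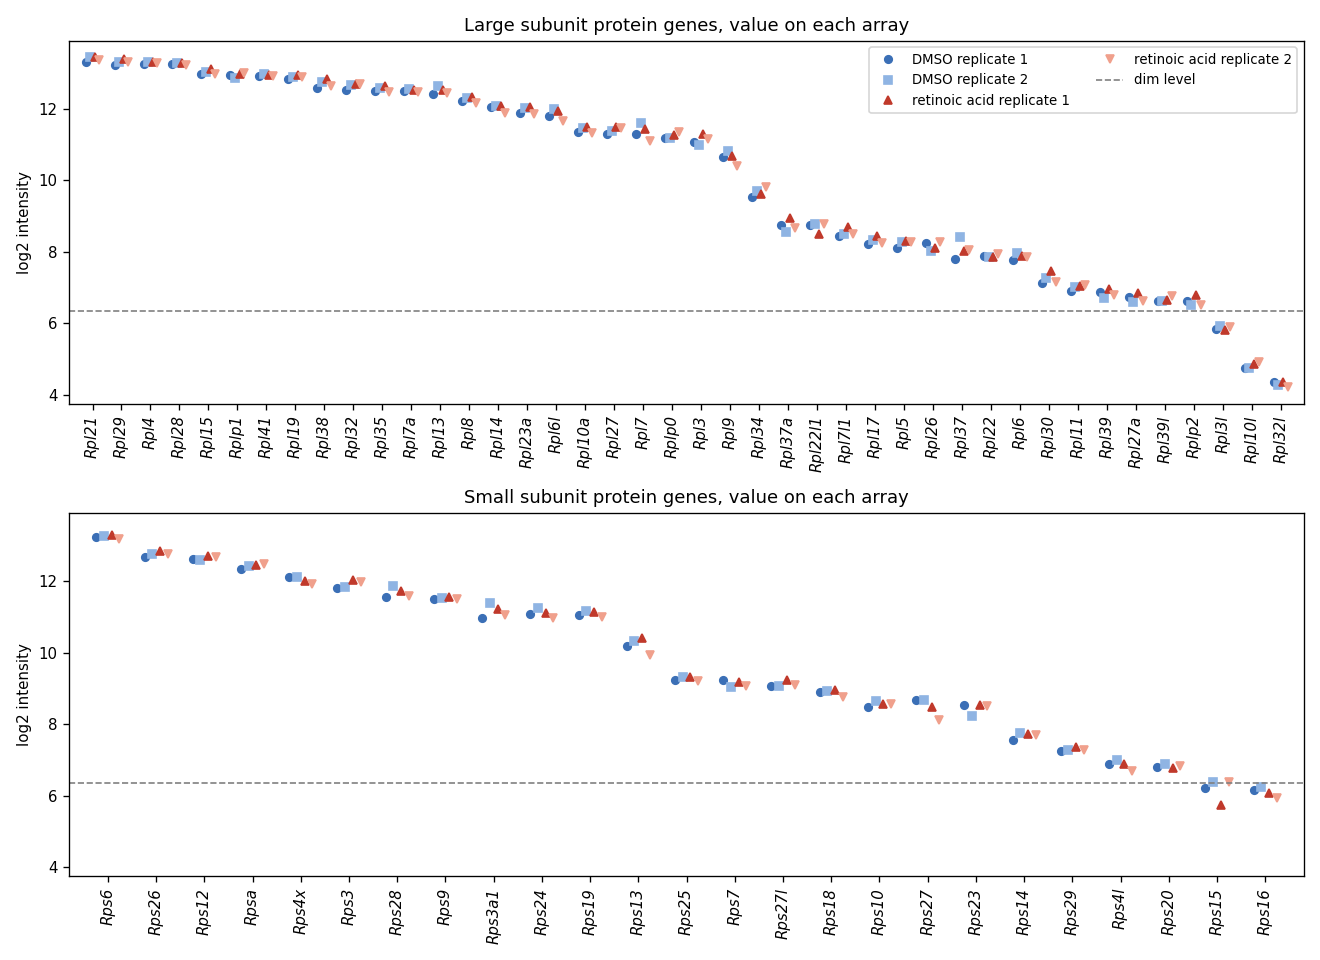
Log2 intensity (vertical axis) of the 42 large and 25 small subunit genes on each of the 4 arrays, genes ordered by mean level within a subunit; the dashed line is the dim level of 6.34. The 4 symbols of a gene nearly coincide for the brightest probe sets, and 5 genes have means under the line.

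The stalk of the large subunit, which recruits elongation factors, is built from Rplp0 and pairs of Rplp1 and Rplp2. Rplp0 had 11.20 and 11.19 with DMSO and 11.28 and 11.36 with retinoic acid, a difference of 0.12 ± 0.08 (SE, limma adjusted p = 0.597). Rplp1 had 12.95 and 12.87 against 12.99 and 13.00 (0.08 ± 0.08), and Rplp2 6.63 and 6.51 against 6.79 and 6.51 (0.08 ± 0.12). Rpsa, a small subunit protein also known as a laminin receptor, had 12.36 and 12.42 against 12.46 and 12.48 (0.08 ± 0.08). For Rplp0, Rplp1 and Rpsa the retinoic acid arrays lay above both DMSO arrays, by differences that did not pass (adjusted p from 0.597 to 0.733).

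In all, the groups did not overlap in 14 member genes with higher values under retinoic acid (20.9%) and in 3 with lower values (4.48%), against 25% and 23% of all genes. The 3 were Rps27, Rps16 and Rps4x. With 2 arrays against 2, an exact permutation test of a single gene cannot give a two-sided p under 0.333.

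The paralogues were examined beside their parent genes, since several are used in particular tissues. Rps27l, a copy of Rps27 that p53 induces, had 9.08 on both DMSO arrays and 9.24 and 9.09 with retinoic acid. Its difference was 0.09 ± 0.09 (SE, limma adjusted p = 0.762), next to -0.37 ± 0.14 for Rps27; the contrast between both genes was not tested. Rpl22l1, a copy of Rpl22 that responds to the dose of its parent, had 8.75 and 8.78 with DMSO and 8.49 and 8.78 with retinoic acid. One array set its difference of -0.13 ± 0.12, and Rpl22 itself had 0.04 ± 0.08. Rps4l and Rps4x had differences of -0.15 ± 0.11 and -0.15 ± 0.08, Rpl39l and Rpl39 of 0.09 ± 0.09 and 0.09 ± 0.11, and Rpl7l1 and Rpl7 of 0.13 ± 0.10 and -0.17 ± 0.16. Rpl6l had -0.09 ± 0.13 at a mean log2 intensity of 11.85, and Rpl6 had -0.0004 ± 0.0963 at 7.86. Whether the brighter Rpl6l probe set also reads mRNA of its parent was not tested. Rpl3l, which belongs to heart and skeletal muscle, and Rpl10l, which belongs to the testis, lay under the dim level, as did Rpl32l. Their differences of -0.03 ± 0.08, 0.14 ± 0.08 and -0.04 ± 0.09 do not show whether these genes responded. Rpl32, the parent of Rpl32l, differed by 0.09 ± 0.09. The adjusted p of these 9 paralogues ran from 0.535 to 0.916. Of the parents measured, 0 passed at either threshold; Rpl10, the parent of Rpl10l, was not among the members.

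Ribosomal protein genes have many processed copies in the genome, so probes can match several loci. The 108 probe sets hold 101 distinct sets of values: 6 probe sets of Rps12, 2 of Rpl23a and 2 of Rps19 carried identical values on all 4 arrays and count as 1 measurement each. Of the 25 genes with more than 1 probe set, 17 had probe sets whose mean log2 intensities lay more than 3 apart, up to 8.24 for Rps26. Their differences between the treatments were closer, with a median distance of 0.10 and a largest one of 0.35, that of Rpl7. In 11 of the 25 the signs differed among the probe sets of the gene. Which locus each probe set measures was not tested.

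For most members at least 1 pair of replicate arrays differed more than the treatment means did. In 55 of the 67 genes (82.1%) a gap between replicates was larger than the difference between treatments, against 63.6% of all genes. A gap between single arrays varies more than a difference between means, and the larger of 2 gaps was taken. A high share is thus built into this measure where the treatment has no effect, so it does not weigh replicate spread against treatment. The gaps ran one way in most members. DMSO replicate 2 was higher than DMSO replicate 1 in 52 genes (77.6%), by a median of 0.07, and retinoic acid replicate 1 was higher than replicate 2 in 52 genes, by a median of 0.08. Both held in 42 genes (62.7%), against 24.1% of all genes. The order was not particular to these genes: the summed intensity of the mitochondrial ribosomal proteins, given below, followed it too. Among the 33 members with a mean log2 intensity of 11 or above, both held in 27 (81.8%), against 33% of the 1058 other named probe sets as bright. The bound of 11 was chosen after the data were seen. The 6 bright exceptions were Rpl3, Rplp0, Rplp1, Rps12, Rps4x and Rpsa.

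**Figure D4:**
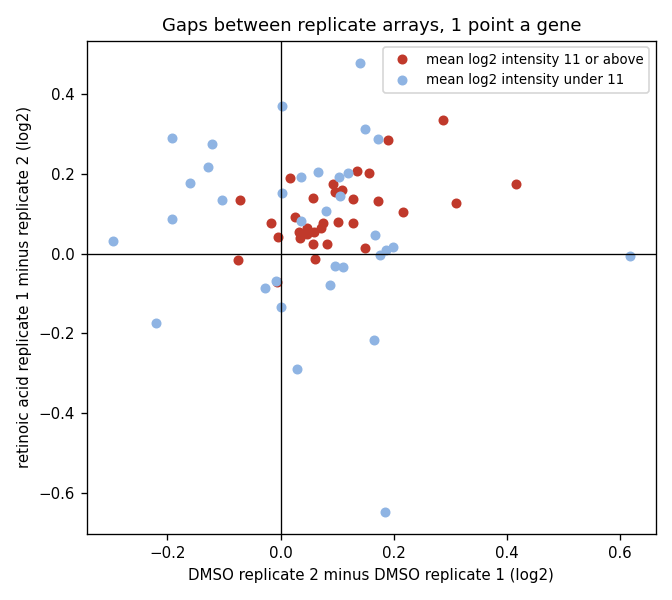
For each of the 67 genes, the log2 gap of DMSO replicate 2 over replicate 1 (horizontal axis) and of retinoic acid replicate 1 over replicate 2 (vertical axis), coloured by mean log2 intensity. Of the 33 genes at 11 or above, 27 lie to the right of and above the zero lines.

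The same arrays were split by the second principal component of all probe sets, which held 23.9% of the variance. DMSO replicate 1 and retinoic acid replicate 2 scored 16.2 and 18.7 on it, and DMSO replicate 2 and retinoic acid replicate 1 scored -11.2 and -23.7. The labels name no factor behind this split. Its part in the members' gaps was not tested. Each treatment holds 1 array of either side, so the gaps enter the difference between treatments with opposite signs and widen its error. Of the 16 genes with a pyrimidine run at the listed start, 13 were higher in DMSO replicate 2 and 14 in retinoic acid replicate 1. Of the 36 with a promoter entry but no run, the counts were 26 and 25. Of the 15 with no promoter entry, they were 13 and 13. The median difference between treatments was -0.005 in the genes with a run, 0.03 in those with an entry but no run and 0.04 in those with no entry.

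Other genes of the translation machinery were taken from lists of gene names, chosen with earlier results of these data known, with 1 probe set a gene. Of all 22180 genes read in this way, 3.07% passed and 15.1% had an unadjusted p under 0.05. Of 101 ribosome assembly factors, which build the subunits in the nucleolus, 0 passed, with a median difference of 0.07 and a range from -0.19 to 0.40. Of 34 genes of RNA polymerases I and III and their factors, which make the ribosomal and transfer RNAs, 0 passed (median 0.03). Of 71 mitochondrial ribosomal proteins 0 passed (median 0.06; -0.01 with the first retinoic acid array left out and 0.12 with the second left out). Of 20 cytosolic tRNA synthetases and their partners 0 passed (median 0.05), and of 19 elongation and release factors 0 passed (median -0.003). At an unadjusted p under 0.05 the counts of these 5 lists were 9, 5, 2, 2 and 2. Fau, whose product includes a small subunit protein and which the name rule does not take in, had 11.73 and 11.81 with DMSO and 11.82 and 11.72 with retinoic acid. This repeats the order of the arrays seen in the bright members. The log2 of the summed intensity of the mitochondrial ribosomal proteins did so too. It was 15.57 and 15.66 in DMSO replicates 1 and 2, and 15.74 and 15.62 in retinoic acid replicates 1 and 2. Of the 5 lists, only the tRNA synthetases had a lower sum in DMSO replicate 2 than in replicate 1 (15.35 against 15.36).

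Of 41 initiation factors 1 rose (2.44%), and 4 had an unadjusted p under 0.05, with a median difference over the list of 0.02. It was Eif4g3, a scaffold that joins the cap-binding protein to the ribosome, which had 9.24 and 9.26 with DMSO and 9.94 and 10.06 with retinoic acid. The retinoic acid arrays were both higher, 1.68-fold (0.75 ± 0.08, SE, limma adjusted p = 0.0290).

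Of 51 genes of mTORC1 and of 5′ TOP mRNA control, 1 rose, 2 fell and 48 did not pass, with a median of 0.01. The 3 calls are 5.88% of the list, against 3.07% of all genes. An unadjusted p under 0.05 was found for 13 of the 51, and for 15.1% of all genes. Larp1b, a relative of the TOP-binding Larp1, was at 9.64 and 9.60 with DMSO and 8.77 and 8.78 with retinoic acid, 1.80-fold lower (-0.85 ± 0.08, SE, limma adjusted p = 0.0173). Fnip2, a partner of folliculin in sensing amino acids at the lysosome, had 10.33 and 10.42 against 9.67 and 9.59, 1.67-fold lower (-0.74 ± 0.08, limma adjusted p = 0.0296). Sesn1, a stress-induced inhibitor of mTORC1, had 7.47 and 7.59 against 8.26 and 8.23, 1.64-fold higher (0.72 ± 0.08, limma adjusted p = 0.0324). Its relatives Sesn2 and Sesn3 had differences of the opposite sign, -0.46 ± 0.12 and -0.47 ± 0.10, and did not pass (limma adjusted p = 0.214 and 0.125). Larp1 itself differed by -0.04 ± 0.08, Mtor by -0.08 ± 0.08 and Myc, an activator of ribosomal genes, by 0.27 ± 0.09 (limma adjusted p = 0.894, 0.744 and 0.284). Mycn, a relative of Myc, had the largest difference of the 51 but did not pass (0.88 ± 0.13, limma adjusted p = 0.0519). It had 5.97 and 6.14 with DMSO, both under the dim level, and 6.80 and 7.06 with retinoic acid. Larp1, Mtor, Myc, Mycn, Sesn2 and Sesn3 were named after their values were seen. The calls of Eif4g3, Larp1b, Fnip2 and Sesn1 were lost when any array was left out, and with the constant probe sets kept in the fit. Of 6 Rps6k family kinases 0 passed (median -0.12; 1 at an unadjusted p under 0.05).

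**Figure D5:**
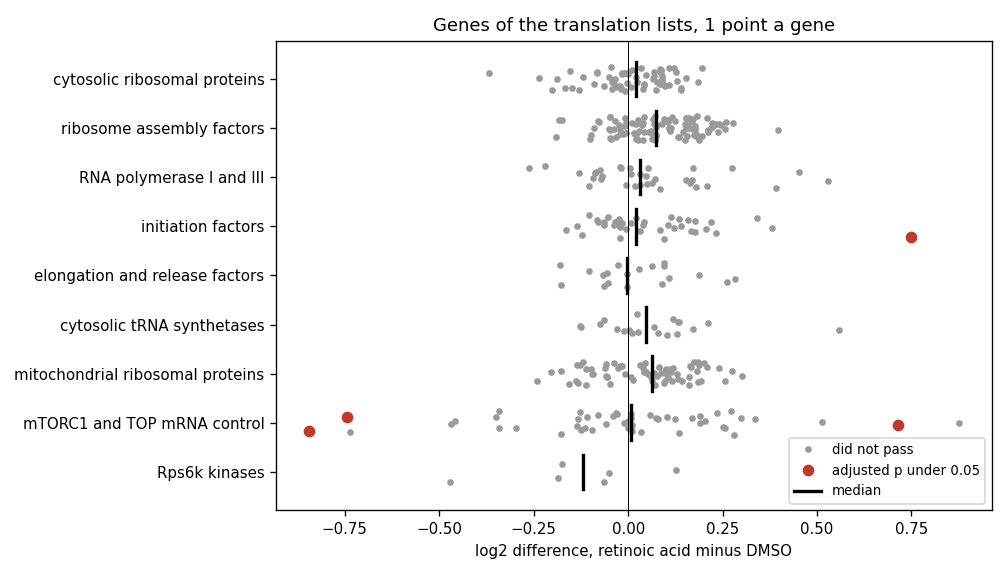
Log2 difference between retinoic acid and DMSO (horizontal axis) for each gene of the ribosomal protein family and 8 translation lists (rows); black bars are medians and large red points are genes with an adjusted p under 0.05. The 67 ribosomal proteins lie between -0.37 and 0.19, and only the initiation factors, with 1 gene, and the mTORC1 and TOP list, with 3, hold red points.

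All 8 monocyte and macrophage markers and all 6 dendritic cell markers lay above the dim level. The marker counts below stand against 3.07% of all genes that passed and 15.1% with an unadjusted p under 0.05. Of the dendritic cell markers 3 fell, H2-Ab1, Zbtb46 and Irf4, and of the monocyte and macrophage markers 0 passed (2 at an unadjusted p under 0.05). Of 8 neutrophil markers 7 lay above it on average, of which Cxcr2 fell, from 11.50 and 11.29 with DMSO to 10.25 and 10.24 with retinoic acid, and the other 6 differed by -0.15 to 0.09 and did not pass. The eighth, Retnlg, rose, but lay under the dim level on all 4 arrays. The log2 of the summed intensity of the 8, which takes in the fall of Cxcr2, was 13.39 and 13.44 with DMSO and 13.13 and 13.11 with retinoic acid. Of 5 B cell markers, 1, Cd79b, rose, and 3 lay under the dim level on all arrays. Of 6 proliferation genes 0 passed (2 at an unadjusted p under 0.05). The calls of all 6 markers named here were lost when any array was left out, and with the constant probe sets kept. The part of other cells in the ribosomal protein values was not tested.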

How the data were processed

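Per the submitters' processing notes, the authors made 1 RMA intensity per probe set and array with Affymetrix Expression Console. RMA corrects background, equalises the arrays' distributions and summarises probes, which can shrink differences of dim probe sets and absorb a shift shared by most genes. Labelling started from 250 ng of RNA, per the labels' protocols. Versions and a genome build are not given in the sources used here. The deposited intensities are linear (array medians 80.0 to 81.8) and were transformed to log2 here. Of 41345 probe sets, 1625 with 1 constant value on all arrays were left out. Of the table, 23521 probe sets have 1 gene symbol, 1814 several and 16010 none.

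The 2 groups were compared without covariates in limma 3.58.1 (lmFit, then eBayes; run in R 4.3.3), two-sided, with Benjamini-Hochberg adjustment over 39720 probe sets and a threshold of 0.05. The script was first tested on simulated data. Alternatives covered the filter, scaling, prior, a replicate block and each array left out. Precision is limited by the number of arrays.

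The members and lists were chosen with earlier results of these data known. Members were named if they passed (up to 20), had the 5 largest differences either way, were the 5 brightest or dimmest genes, were a paralogue or its parent, had discordant probe sets, or were Rplp0 to Rplp2, Rpsa, Rps6 or Rps27a; no probe set met the rule for Rps27a. From other lists, genes that passed were named. No probe set with several symbols gave a name.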

Additional observations from a re-analysis of the deposited data

How the results depend on the processing

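In all 15 alternatives 0 member probe sets passed (limma), with the smallest adjusted p between 0.168 and 0.488; at an unadjusted p under 0.05 between 0 and 5 members passed. The count over all probe sets, 831 as reported, was 0 with constant probe sets kept, 1636 (757 higher, 879 lower) with only 1-symbol probe sets, and 25 to 55 with 1 array left out. With the replicate number as a block it was 161. The numbers pair nothing in the labels, and the deviations of same-numbered arrays correlated at -0.251. With crossed numbers as a block, chosen after seeing the data, it was 457. The median of the large subunit genes ran from -0.0081 to 0.078 with 1 array left out, that of the small subunit genes from -0.064 to 0.043, and that of all member genes from -0.01 to 0.05. Over other scalings and gene choices the median of all member genes lay between 0.01 and 0.04. Of 32 named members, 28 kept their sign under centring, quantile normalization and cyclic loess. Eif4g3, Larp1b, Fnip2 and Sesn1 also did not pass with constant probe sets kept or the replicate block. The mTORC1 list, with 3 calls as reported, had 5 with only probe sets above the median and 7 with only 1-symbol probe sets. The cause was not tested.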

Other observations

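A further 57 probe sets carry several gene symbols of which at least 1 is a cytosolic ribosomal protein; none of them was named. Their differences ran from -0.25 to 0.74 with a median of 0.06, 43 positive and 14 negative. Of these, 0 passed in limma (smallest adjusted p = 0.201; 4 at an unadjusted p under 0.05). Retinoic acid replicate 1 was higher than replicate 2 in 47 of the 57, and DMSO replicate 2 higher than replicate 1 in 36.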
